A study of Mus musculus with 15 samples.

Results

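The 33 genes described here encode proteins of the centrosome, of centriole duplication and of the dynein motor, among them genes whose loss causes primary microcephaly. They were taken from a named list, and all 33 of 33 had a row among the 44260 genes of the table. All lie on autosomes and all passed the minimum mean value of 10, so every one was tested. RNA was read in 3 libraries, titled C1 to C3, from day 12 organoids grown from SpretB6 epiblast stem cell lines, hybrids that carry a C57Bl/6J copy (B6) and a copy from the wild-derived Spret strain of each autosome. Every gene thus has 6 values, 1 from each allele in each library, and the labels name no further allele or agent. Both alleles sit in the same cells, so the comparison asks how much allele-assigned RNA each copy gives in 1 cellular environment. Reads were placed on mm10, a B6 reference, and how they were assigned to alleles is not given. Unequal RNA and unequal placement or assignment of reads therefore cannot be told apart. The sources do not say whether the 3 libraries came from separate cultures, so the p-values reflect variation among these 3 libraries only, and that variation may be technical. No library of a reverse cross was used, so strain and parental origin of an allele cannot be told apart. The 12 induced pluripotent stem cell samples of the series, 3 from each of 4 crosses, were not analysed here.

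The centrosome is a pair of centrioles in a matrix of pericentriolar proteins that anchors gamma-tubulin rings, from which microtubules grow. In cortical progenitors it sets up the mitotic spindle and, as the basal body, the primary cilium. Dynein carries cargo toward microtubule minus ends. With its regulator Lis1 it moves the nuclei of radial glia and of migrating neurons, and mutations in the human genes of both systems cause microcephaly or lissencephaly.

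The deposited values are normalised allele-specific read numbers, rounded to whole numbers. B6 columns summed to between 2413876 and 3027078 and Spret columns to between 2088788 and 2639912, with library 2 lowest. The tissue label names epiblast stem cells, while the protocol describes organoids. Summed over both alleles, 5 cortical neuron markers stood at 17295, 16827 and 17158 in libraries 1, 2 and 3, 5 cortical progenitor markers at 2396, 1825 and 2244, 3 markers of intermediate progenitors at 2345, 2010 and 1765, 5 markers of cycling cells at 3003, 2138 and 2808, and 5 pluripotency markers at 71, 79 and 22. Of the last, Zfp42 was listed at 0 in libraries 1 and 2 and Utf1 in library 3, and Pou5f1 made up most of the sum at 57, 63 and 13. Within the neuron sum, Map2 was the largest part at 8725, 8041 and 9889. Neurod6 stood at 4730, 4871 and 3177 and Tbr1 at 245, 234 and 508, so the level sum hides moves in opposite directions. The 5 markers of choroid plexus and multiciliated cells stood at 2961, 704 and 430, mostly Ttr at 2555, 534 and 323. The 3 of mesenchyme stood at 323, 267 and 311. Fewer cells of a type and less RNA per cell cannot be told apart in such bulk values.

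Of the 33 genes, 11 differed between alleles by limma at an adjusted p under 0.05, 5 of them higher from Spret and 6 higher from B6. This is 33.3% of the list, against 28.4% of 15456 tested autosomal genes (7.78% higher from Spret and 20.7% higher from B6) and 30.4% of all 15985 tested genes (7.56% and 22.8%). The 5 higher from Spret were Cep152, Cep192, Nin, Dync1h1 and Akap9. The 6 higher from B6 were Cep63, Tubg1, Cdk5rap2, Cep97, Pafah1b1 and Odf2. All 11 differences were under 2-fold, from 1.08-fold for Akap9 to 1.70-fold for Cep63. Their median size was 0.37 on the log2 scale, against 0.64 for called autosomal genes, and over all 33 genes it was 0.14, against 0.29. Log2 ratios are of Spret over B6, each value with 1 added, and their median was -0.01 over the list and -0.13 over autosomal genes. With each library's ratios centred on the autosomal median, 7 of the 33 were called toward Spret and 5 toward B6, against 13.3% and 13.5% of autosomal genes. Without libraries 1, 2 and 3 in turn, 2, 3 and 1 were higher from Spret and 5, 6 and 4 from B6. Over autosomal genes 575, 984 and 752 were then higher from Spret and 1645, 2563 and 2094 from B6. These are out of 15565, 15132 and 15795 tested, beside 1202 and 3193 of 15456 with all libraries.

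**Figure D1:**
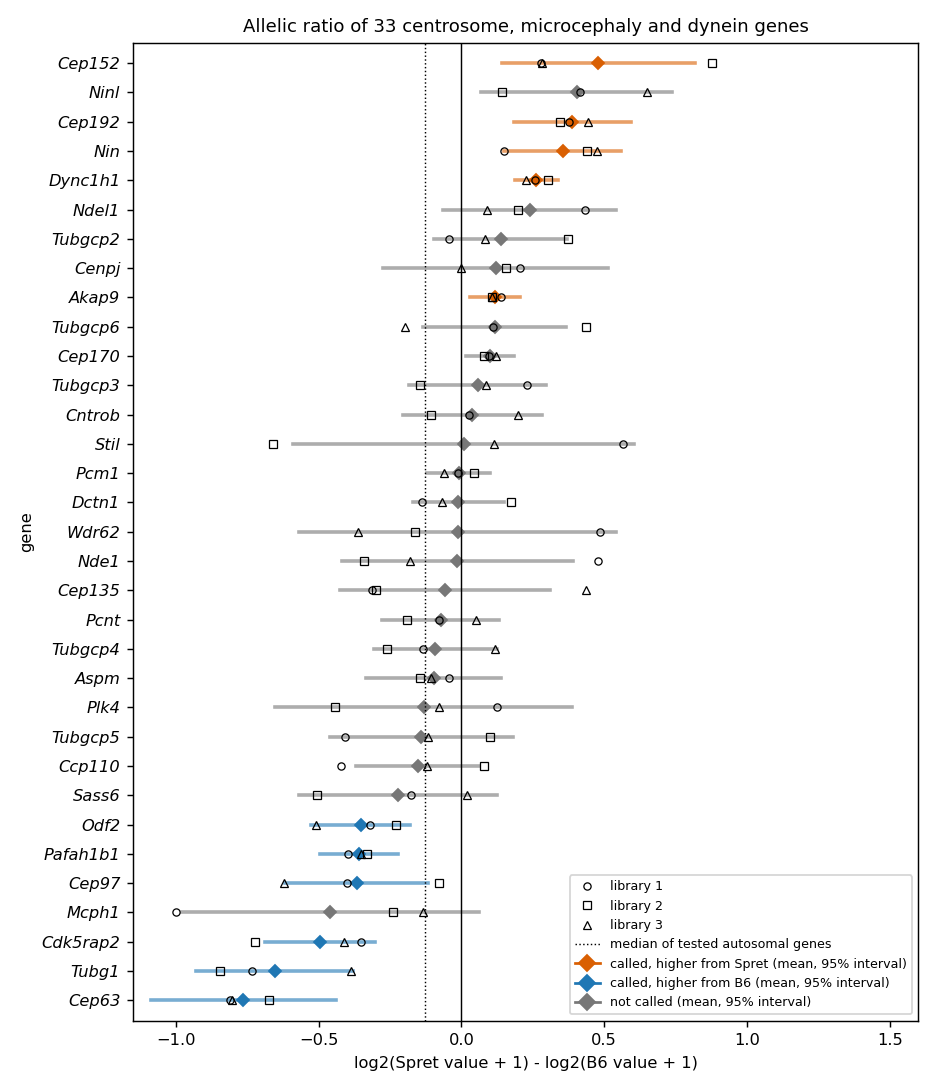
Log2 ratio of Spret to B6 (horizontal axis, 1 added to each value) of the 33 genes (vertical axis, ordered by mean ratio): open symbols are the 3 libraries, diamonds the mean, bars the 95% interval from limma, and the dotted line the autosomal median of -0.13. The 11 called genes are in colour, from Cep63 at -0.76 to Cep152 at 0.48, and intervals are wide for genes of low value such as Stil.

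The fitted standard error of the ratio differed between genes of high and low value, in part through limma's intensity trend. It ran from 0.04 for Dync1h1, the gene with the highest summed value, to 0.28 for Stil, the lowest. Without the trend these errors were 0.10 and 0.27, and that of Plk4, also of low value, went from 0.24 to 0.15. Of the 33, 6 had a summed mean value under 150 and 0 of these were called, while Cep170, the second highest, was not called either and genes outside the 33 with lower sums were, such as Tubg2 (sum 79.3). Per kilobase of annotated exon, Dync1h1 had the highest level at 454, followed by Pcm1 at 272, Cep170 at 250 and Akap9 at 197. Plk4 (9.43), Mcph1 (9.69), Stil (10.4) and Wdr62 (10.9) had the lowest. The list median was 38.2. Only reads assigned to an allele enter these levels. In 28 of 33 genes the summed value was lowest in library 2, the library with the lowest total.

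Dynein motor and regulators showed calls in both directions, 1 toward Spret and 1 toward B6 among 5 genes. The shares over tested autosomal genes were 7.78% and 20.7%. Dync1h1 (chromosome 12, 110601452 to 110666945, mm10), the heavy chain that holds the motor, read 3064, 2700 and 3946 from B6 and 3664, 3331 and 4618 from Spret in libraries 1, 2 and 3. Spret was higher within each library, although the libraries differed in level by more than the alleles did. The log2 ratio was 0.26 ± 0.04 (SE, limma adjusted p = 4.91e-05), and Spret gave 54.5% ± 0.658 of the value (SD, n = 3). Pafah1b1 (chromosome 11, 74673949 to 74724670) encodes Lis1, which holds dynein in its active state and is the gene of classical lissencephaly. It read 602, 493 and 717 from B6 and 457, 392 and 562 from Spret. B6 was higher in each library, again with overlap of the alleles across libraries. Its ratio was -0.36 ± 0.06 (limma adjusted p = 0.000616), with a Spret share of 43.8% ± 0.584, and with centred ratios it was -0.24 and stayed called. The Pafah1b1 pseudogenes in the table, Pafah1b1-ps1 and Pafah1b1-ps2, read at most 3 in any column.

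The other dynein regulators were not called. Dctn1, the large dynactin subunit that links dynein to cargo, read 504, 397 and 544 from B6 and 458, 448 and 519 from Spret, a ratio of -0.01 with a 95% interval from -0.17 to 0.15. Nde1 and Ndel1 are paralogs that bind Lis1 to dynein, and loss of the former causes severe microcephaly. Nde1 had a ratio of -0.01 (interval -0.42 to 0.39), with a Spret share of 58.3% in library 1, 44.1% in library 2 and 46.8% in library 3. Ndel1 leaned to Spret in 3 of 3 libraries, at 82, 74 and 109 from B6 and 111, 85 and 116 from Spret, with a ratio of 0.24 (interval -0.06 to 0.54, limma adjusted p = 0.222).

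Among 7 genes of centriole assembly, 1 was called toward Spret and 1 toward B6, beside 7.78% and 20.7% of tested autosomal genes. The called genes are partners. Cep63 and Cep152 form a ring around the parent centriole that recruits Plk4, the kinase that starts duplication. Cep63 (chromosome 9, 102584588 to 102626534) read 113, 98 and 95 from B6 and 64, 61 and 54 from Spret. Every B6 value was above every Spret value. Its ratio of -0.76 ± 0.15 (limma adjusted p = 0.00149) had the largest size of the 33, with a Spret share of 36.9% ± 1.25. Cep152 (chromosome 2, 125563088 to 125625113) read 98, 54 and 87 from B6 and 119, 100 and 106 from Spret. Every Spret value was above every B6 value, by only 2 between the closest pair, and library 2 had the lowest B6 value. Its ratio was 0.48 ± 0.16 (limma adjusted p = 0.033). The call of Cep152 ended without any 1 of the libraries (adjusted p = 0.0958, 0.218 and 0.0622 without libraries 1, 2 and 3), and without library 2 the ratio was 0.28.

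Cep63 overlaps another gene at its start. Anapc13, a subunit of the anaphase-promoting complex on the opposite strand, shares 239 exon bases with it, 2.49% of the exon length of Cep63, and had a ratio of -0.96 ± 0.18 (limma adjusted p = 0.00108). The sources used here do not state whether counting used strand, so reads from the shared bases cannot be told apart. The other 5 assembly genes were not called, and none kept 1 sign over 3 libraries. Cenpj was higher from Spret in libraries 1 and 2 and tied at 56 in library 3. Sass6, which builds the cartwheel of a new centriole, had a ratio of -0.22, Plk4 -0.13, Cep135, which joins cartwheel and wall, -0.06, Stil, the Plk4 target that recruits Sass6, 0.01, and Cenpj, which sets centriole length, 0.12. Their 95% intervals together ran from -0.65 for Plk4 to 0.61 for Stil. Sass6 shares 24.5% of its exon bases with the antisense gene Gm42893 and 6.36% with Trmt13. Foxj1, a regulator of multiciliated cells, which make many centrioles, stood at 282, 102 and 68 in libraries 1, 2 and 3. From the same marker list, Mcidas stood at 25, 14 and 8 but Ccno at 20, 23 and 18, so not all followed Foxj1. Over the same libraries Plk4 stood at 67, 57 and 70, Stil at 60, 47 and 73, Sass6 at 162, 148 and 159, and Cep152 at 217, 154 and 193. Of these, Cep152 and Sass6 were highest in library 1, and the part of these cells in the results was not tested.

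Of the pair that caps the centriole and limits its growth, Cep97 was called and Ccp110 was not. Cep97 (chromosome 16, 55899888 to 55934855) read 193, 185 and 219 from B6 and 146, 175 and 142 from Spret. B6 was higher throughout, by least in library 2. The ratio was -0.37 ± 0.12 (limma adjusted p = 0.0282). Its call ended with centred ratios (-0.24, adjusted p = 0.136), without library 1 (0.169) and without library 3 (0.258, ratio -0.24). Ccp110 read 311, 209 and 315 from B6 and 232, 221 and 290 from Spret, a ratio of -0.15 with an interval from -0.37 to 0.06.

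The pericentriolar scaffold and anchoring genes held 3 of the 5 calls toward Spret and 1 toward B6, among 9. Over tested autosomal genes 7.78% were called toward Spret and 20.7% toward B6, and no group of members was tested against these shares. Cep192 (chromosome 18, 67800107 to 67885170), which organises the matrix and recruits mitotic kinases, read 173, 139 and 222 from B6 and 225, 177 and 302 from Spret. Spret was higher in each library. The ratio was 0.39 ± 0.10 (limma adjusted p = 0.00652), with a Spret share of 56.7% ± 0.828. Nin (chromosome 12, 70011435 to 70113717) encodes ninein, which anchors microtubules at the mother centriole, and read 220, 176 and 242 from B6 and 244, 239 and 337 from Spret. The Spret excess was smallest in library 1. Its ratio was 0.35 ± 0.10 (limma adjusted p = 0.0118). Akap9 (chromosome 5, 3928054 to 4081310), a scaffold for protein kinase A at centrosome and Golgi, read 2043, 1709 and 2304 from B6 and 2249, 1839 and 2484 from Spret. Its ratio was small and repeatable, at 0.12 ± 0.04 (limma adjusted p = 0.0392), with a Spret share of 52.0% ± 0.315, and with centred ratios it was 0.24 and stayed called. The call of Cep192 ended without library 1 (adjusted p = 0.0566) and library 3 (0.0707), that of Nin without library 2 (0.0599) and library 3 (0.122), and that of Akap9 without each (0.167, 0.11 and 0.105).

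Odf2 (chromosome 2, 29889221 to 29931746), which builds the appendages of the mother centriole, was the scaffold gene higher from B6. It read 391, 325 and 449 from B6 and 313, 277 and 315 from Spret. The alleles did not overlap, with library 3 showing the widest gap. The ratio was -0.35 ± 0.08 (limma adjusted p = 0.00427), and the call ended without library 3 (adjusted p = 0.0704). With centred ratios it was -0.23 and stayed called. Ninl, the ninein-like protein, read 77, 66 and 71 from B6 and 103, 73 and 112 from Spret and missed the threshold (0.40 ± 0.16, limma adjusted p = 0.066), which it passed with centred ratios (0.0201) and without library 2 (0.0367). Cep170, an appendage protein that binds microtubules, read 2054, 1928 and 2536 from B6 and 2198, 2037 and 2757 from Spret. Its ratio of 0.10 ± 0.04 was not called (limma adjusted p = 0.0719) and passed with centred ratios (0.000564). Pcm1, the core of centriolar satellites, had -0.01, with an interval from -0.12 to 0.10, the narrowest among genes of mixed sign. Pcnt, the scaffold mutated in microcephalic primordial dwarfism, had -0.07, and Cntrob, a protein of the daughter centriole, 0.04.

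In the gamma-tubulin ring, 1 of 6 genes was called, beside 28.4% of tested autosomal genes. Tubg1 (chromosome 11, 101119938 to 101126419), the main gamma-tubulin, read 190, 148 and 148 from B6 and 114, 82 and 113 from Spret. Every B6 value was above every Spret value. Its ratio was -0.65 ± 0.13 (limma adjusted p = 0.0013). Its close copy Tubg2, next to it on the chromosome (101155907 to 101161787), read 57, 43 and 47 from B6 and 29, 24 and 38 from Spret, a ratio of -0.69 ± 0.23 (limma adjusted p = 0.0345). Values of both are uncertain, because reads of such copies could be split between them. The ring proteins Tubgcp2 (0.14), Tubgcp3 (0.06), Tubgcp4 (-0.09), Tubgcp5 (-0.14) and Tubgcp6 (0.12) were not called, and in none of them did the 3 libraries share a sign. Tubgcp4 shares 25.4% of its exon bases with Trp53bp1 on the opposite strand.

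The spindle pole group held the best known microcephaly genes, and 1 of 4 was called, beside 28.4% of tested autosomal genes. Cdk5rap2 (chromosome 4, 70216856 to 70410443), which activates gamma-tubulin rings at the centrosome, read 391, 314 and 386 from B6 and 306, 190 and 290 from Spret. Its B6 values lay above all its Spret values. The ratio was -0.50 ± 0.09 (limma adjusted p = 0.000718), with a Spret share of 41.5% ± 3.33. Cdk5rap2 shares 365 exon bases, 2.8% of its exon length, with the transcribed pseudogene Ywhaq-ps3 on the same strand. That pseudogene has no values here, so reads from the shared bases cannot be told apart. Aspm, the gene most often mutated in primary microcephaly, read 166, 147 and 140 from B6 and 161, 133 and 130 from Spret. B6 was slightly higher in 3 of 3 libraries. The ratio of -0.10 was not called, with an interval from -0.33 to 0.14. Mcph1, a regulator of chromosome condensation, read 49, 38 and 44 from B6 and 24, 32 and 40 from Spret, with most of its gap in library 1 (-0.46, limma adjusted p = 0.172). Wdr62, a spindle pole scaffold, read 24, 27 and 44 from B6 and 34, 24 and 34 from Spret, a ratio of -0.01 with an interval from -0.57 to 0.54.

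**Figure D2:**
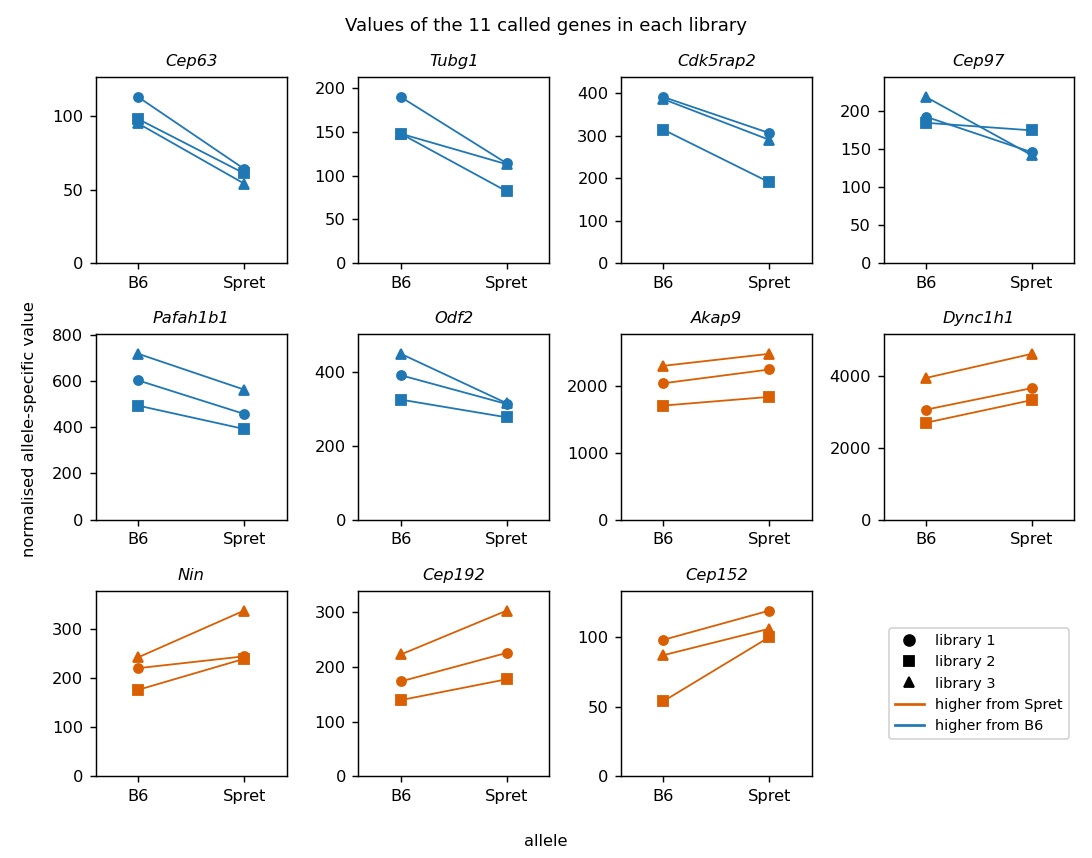
Normalised value (vertical axis, from 0) of the B6 and Spret allele (horizontal axis) of the 11 called genes, with 1 line per library. Lines slope the same way in all 3 libraries of each gene, and in 6 genes (Cep63, Tubg1, Cdk5rap2, Cep97, Odf2 and Cep152) no value of one allele lies among those of the other.

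In 6 of the 33 genes the 3 values of one allele lay wholly above those of the other, against 23.8% of tested autosomal genes, and all 6 were among the 11 called. The ratio had 1 sign in all libraries for 16 of the 33, against 54.0% of autosomal genes. The 17 others had mean ratios from -0.22 to 0.14. Across the 33 genes, ratios of libraries 1 and 2 correlated at r = 0.417, of 1 and 3 at 0.550 and of 2 and 3 at 0.514, against 0.609, 0.655 and 0.603 over autosomal genes. Genes are not independent replicates and both alleles of a gene share a library, so these are descriptions. Calls rested on pairing the alleles within a library and on limma's variance trend. Without the library term the call of Cep63 was the one of the 11 that stayed, and so it was without the trend (limma adjusted p from 0.00103 to 0.0473 over its 10 alternatives). With no filter on low values Cep63, Pafah1b1 and Dync1h1 stayed called.

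Promoter sequence is shown for Cep152, Nin and Odf2, the called genes whose 250 bases before the RefSeq start hold no annotated exon of any gene. These are reference sequences of the B6 allele from RefSeq (GRCm38.p6), 5′ to 3′ on the gene's strand. The Spret sequence was not used here. Allelic values are per gene, and which start the RNA came from was not tested. Capitals mark matches on either strand to CCAAT, the box bound by NF-Y, to GGGCGG, the GC box, and to TTTGAA, the core of the CHR element of cell cycle genes. The windows are chr2:125625114-125625363 (minus strand), chr12:70112036-70112285 (minus strand) and chr2:29889470-29889719 (plus strand), and those of Nin and Odf2 lie inside the longer gene span of GENCODE.
Cep152: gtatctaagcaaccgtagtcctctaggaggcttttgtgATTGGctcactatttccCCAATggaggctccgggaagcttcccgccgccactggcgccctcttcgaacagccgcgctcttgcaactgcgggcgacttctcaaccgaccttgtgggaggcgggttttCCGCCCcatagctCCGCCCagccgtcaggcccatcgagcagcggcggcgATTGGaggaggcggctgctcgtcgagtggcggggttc
Nin: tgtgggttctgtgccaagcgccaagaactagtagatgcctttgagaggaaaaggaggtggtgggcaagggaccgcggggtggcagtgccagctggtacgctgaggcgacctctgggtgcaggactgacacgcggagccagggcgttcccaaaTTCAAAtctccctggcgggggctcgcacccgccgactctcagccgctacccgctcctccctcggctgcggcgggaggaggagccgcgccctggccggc
Odf2: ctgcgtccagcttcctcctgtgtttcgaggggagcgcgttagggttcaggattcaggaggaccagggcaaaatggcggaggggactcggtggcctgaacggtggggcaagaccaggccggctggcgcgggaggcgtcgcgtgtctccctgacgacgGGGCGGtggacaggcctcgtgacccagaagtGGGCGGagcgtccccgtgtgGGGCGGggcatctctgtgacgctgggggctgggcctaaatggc
No marked matches overlap. Cep152 held 3 CCAAT matches and 2 GC boxes, Nin 1 TTTGAA match and Odf2 3 GC boxes. A promoter was found for 27 of the 33 genes. CCAAT was in 8 of 27 windows, against 34.5% of 27025 promoters of the same length, TTTGAA in 3 of 27 against 16.3%, and GGGCGG in 15 of 27 against 32.9%. The E2F site forms TTTCCCGC and TTTGGCGC were in 0 of 27, against 0.929% and 0.437%. Of the 9 called genes with a window, 6 held GGGCGG and 3 held CCAAT. Median GC content was 58.8% in the 27 windows and 52.0% in all. A match is a description of letters, not of a bound site.

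Nearest neighbours on the chromosome, taken by gene start, gave 22 further tested genes for the 11 called ones. Their starts lay from 1.71 kb (Gm35558 and Dync1h1) to 1455 kb (Brinp1 and Cdk5rap2) from that of the called gene. Untested genes were passed over, so a neighbour named here need not be the next annotated gene. Of the 22, 10 were called, 7 in the direction of their neighbour in the list and 3 against it, and 15 shared the sign of the ratio. Among the 7, Anapc13, Gm35558 and Gm23865 share exon bases with their neighbour in the list, and Tubg2 is a close copy of Tubg1. Reads of these pairs may be shared, so their values are not separate measurements. Over all tested genes 30.4% were called, 7.56% toward Spret and 22.8% toward B6, and 36.8% of autosomal ratios were above 0. Whether neighbours go together more often than other genes was not tested. Beside Cep152, Shc4, a signalling adaptor, was higher from Spret (0.75 ± 0.11, limma adjusted p = 9.25e-05). Beside Pafah1b1, the RNA methyltransferase gene Mettl16 was higher from B6 at -0.36 ± 0.10 and Cluh, which binds messenger RNAs of mitochondrial proteins, was not called at 0.18. Megf9 beside Cdk5rap2 was also higher from B6 (-0.27 ± 0.07). Beside Cep97 the ribosomal protein gene Rpl24 was higher from Spret (0.74 ± 0.11). Nin had the ubiquitin ligase gene Trim9 after it, starting 233 kb away and higher from B6 (-0.47 ± 0.10). Each was opposite to its called gene. The nearest tested gene before Akap9 was Mterf1a, which read 24.0 from B6 and 1.00 from Spret on average (-3.75 ± 0.43). At so low a Spret value the added 1 weighs on the size of the ratio. Gm35558 on the opposite strand at the start of Dync1h1 was higher from Spret (0.79 ± 0.15, limma adjusted p = 0.000806) and shares 403 exon bases with it, 2.57% of the exon length of Dync1h1. The small nuclear RNA Gm23865 lies on the opposite strand over 97 exon bases of Odf2 and was higher from B6 at -1.94. Ky beside Cep63 (-0.49), Gm9913 beside Cep152 (0.94), Nxpe3 beside Cep97 (-0.31), Gm17111 over Dync1h1 (0.11), Retreg3 beside Tubg1 (-0.14), Cercam beside Odf2 (0.28), Wdr46-ps inside the span of Akap9 (-0.83), Gm19144 beside Nin (-0.29), Seh1l (0.04) and Ldlrad4 (0.04) beside Cep192 and Brinp1 beside Cdk5rap2 (-0.24) were not called. Cyp51, which shares 166 exon bases with Akap9 on the opposite strand, is not among these neighbours.

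**Figure D3:**
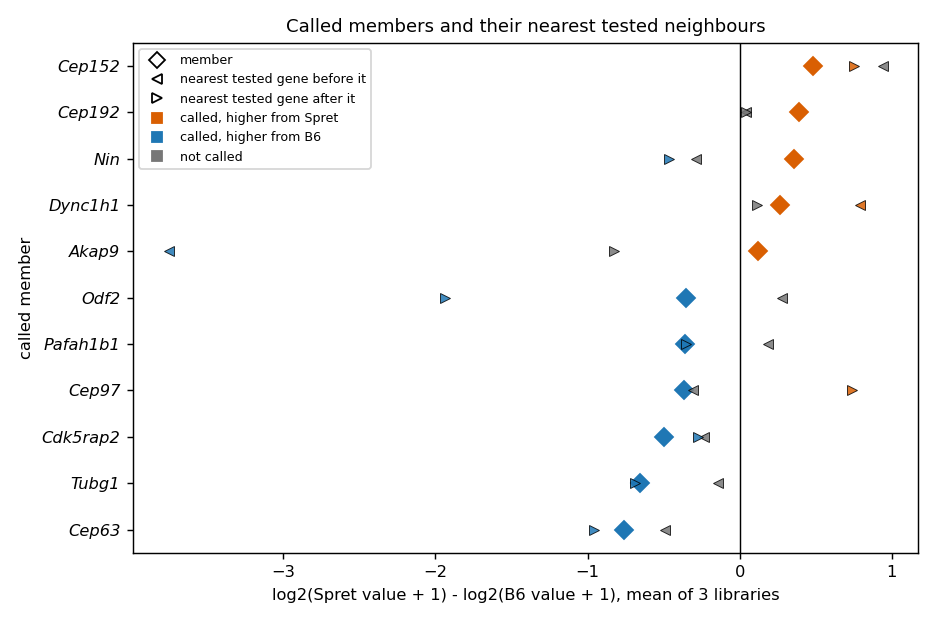
Mean log2 ratio of Spret to B6 (horizontal axis, 1 added to each value) of each called gene (diamonds, vertical axis) and of the nearest tested gene before and after it on the chromosome by gene start (triangles). Of 22 neighbours, 7 were called in the same direction, such as Shc4 beside Cep152 at 0.75, and 3 in the opposite one, such as Rpl24 beside Cep97 at 0.74. The lowest ratio, -3.75 for Mterf1a beside Akap9, rests on a mean Spret value of 1.00. Among the 7, Anapc13, Gm35558 and Gm23865 share exon bases with the called gene, and Tubg2 is a close copy of Tubg1.

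Other genes of the same systems were counted from 3 lists that hold none of the 33. Of 27 tested dynein and dynactin genes, 12 were called (44.4%), 6 in each direction, with a median ratio of -0.10. Toward Spret these included the light chain genes Dynlrb1 (0.14 ± 0.05) and Dynll1 (0.24 ± 0.08), and toward B6 the light intermediate chain gene Dync1li2 (-0.30 ± 0.06) and the cargo adaptor Bicd1 (-0.28 ± 0.07). With centred ratios 8 were higher from Spret and 1 from B6. Dynlrb2 and Dctn3 fell under the minimum mean value. Of 54 other centrosome and centriole genes, 19 were called (35.2%), 5 toward Spret, with the spindle pole organiser Numa1 (0.44 ± 0.05) and Cep295 (0.31 ± 0.07), and 14 toward B6, with the appendage gene Fbf1 (-1.27 ± 0.07) and Cep120 (-0.49 ± 0.08). Their median was -0.17, and with centred ratios 7 and 10 were called. Of 25 other primary microcephaly genes, 6 were called (24.0%), 2 toward Spret, with the autophagy scaffold Wdfy3 (0.16 ± 0.05) and Arfgef2 (1.06 ± 0.12), and 4 toward B6, with the condensin gene Ncapd2 (-0.64 ± 0.05) and Ankle2 (-0.40 ± 0.09). Their median was -0.09, and with centred ratios 5 and 4 were called. Limma adjusted p-values of these 12 named genes ranged from 7.97e-10 for Fbf1 to 0.0431 for Dynlrb1. Without libraries 1, 2 and 3 in turn, 1, 6 and 4 dynein and dynactin genes were higher from B6 and 3, 3 and 3 from Spret, 8, 11 and 9 centrosome genes from B6 and 2, 4 and 4 from Spret, and 3, 5 and 4 microcephaly genes from B6 and 1, 1 and 1 from Spret. Over autosomal genes, calls fell from 4395 to 2220, 3547 and 2846 under the same omissions.

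**Figure D4:**
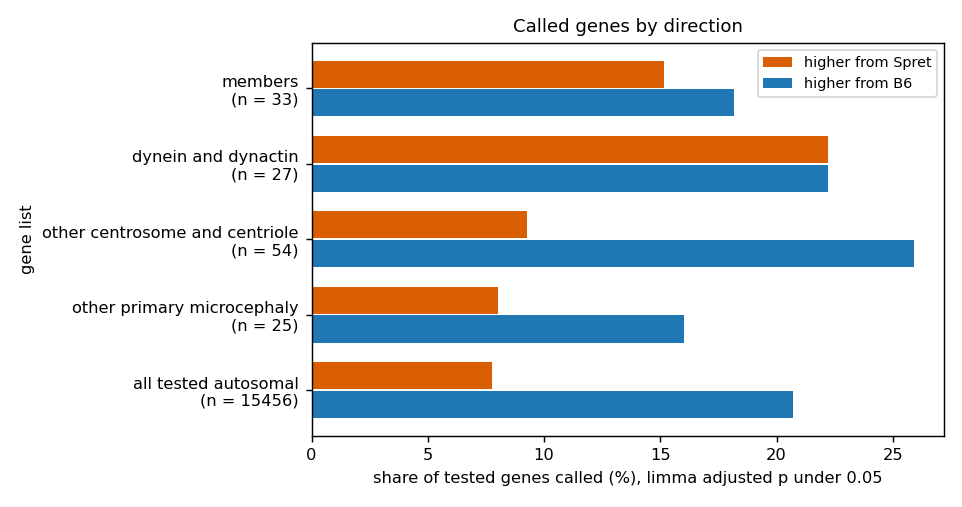
Share of tested genes called by limma (horizontal axis, percent) higher from Spret or from B6, for the 33 members, the 3 related lists and all tested autosomal genes (vertical axis, n beside each). The members stand at 5 and 6 of 33, beside 7.78% and 20.7% of autosomal genes.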

How the data were processed

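RNA of 3 day 12 organoid libraries was read after ribosomal RNA depletion, per the labels' protocols. The authors deposited 1 table of allele-specific values for B6 and Spret, treated here as a score: per the file's name they are normalised, and they are whole numbers. Among the whole numbers up to 200, no gene took 27 of them in library 1, 43 in library 2 and 0 in library 3. Because the values are named as normalised, no test for read counts was used. Per the submitters' processing notes, reads were placed on mm10. Aligner, allele assignment, counting tool and strand setting are not given in the sources used here.

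Ratios are log2(Spret + 1) minus log2(B6 + 1), which understates the change of low genes. Those with a mean of at least 10 over 6 allele columns were tested with limma 3.58.1 (R 4.3.3), two-sided, in a model of allele plus library with an intensity trend. P-values were adjusted by Benjamini-Hochberg over all 15985 tested genes, and 0.05 was the threshold. The fit left 2 residual degrees of freedom, to which the prior contributed 12.3 more. The fit was tested on simulated data that held no library effect and only changes of 2-fold or more. Pairing by library and the smaller changes of the called members were thus not covered. Alleles of a library come from the same RNA, which is where the pairing comes from. Their deviations from the allele means correlated at 0.205, 0.435 and 0.550 in libraries 1, 2 and 3. Positions and exon lengths are from GENCODE M21 (GRCm38, the assembly of mm10). The 33 members and the related lists were chosen with earlier results of these data known. Named are all called members, uncalled members with 1 sign in 3 libraries, per related list the 2 called genes with the highest sums in each direction, and the nearest tested neighbours of called members. Uncalled members of mixed sign and the other called genes named were added after their values were seen. Alternatives changed the pseudocount (0.5), the filter (none, or 50), centring, the genes fitted, the trend, the library term and the libraries used.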

Additional observations from a re-analysis of the deposited data

How the results depend on the processing

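With 3 libraries and values of unknown read depth, genes of low value carried wide intervals. All 33 members kept their side of the threshold with a pseudocount of 0.5 and with autosomal genes alone in the fit, as did the 29 members tested at a minimum mean of 50. In what follows the counts are for Spret, then B6. With no filter on low values limma called 1 and 2 members, 0 (6 at an unadjusted p under 0.05) and 1 dynein and dynactin genes, 1 and 3 centrosome genes and 1 and 1 microcephaly genes. With no intensity trend these were 0 (4 unadjusted) and 1, 2 and 1, 0 (6 unadjusted) and 6, and 1 and 2. With no replicate block, so without the pairing of alleles by library, they were 0 (0 unadjusted) and 1, 1 and 1, 0 (2 unadjusted) and 3, and 1 and 0 (4 unadjusted). With centred ratios 1 dynein and dynactin gene was called toward B6 and 5 microcephaly genes toward Spret. Leaving out 1 library gave 1 to 3 and 4 to 6 members, 3 and 1 to 6 dynein and dynactin genes, 2 to 4 and 8 to 11 centrosome genes, and 1 and 3 to 5 microcephaly genes. Over all autosomal genes 4395 calls of 15456 tested became 722 of 41876 with no filter, 1775 without the trend and 1087 without the block. Leaving out libraries 1, 2 and 3 in turn gave 2220 of 15565, 3547 of 15132 and 2846 of 15795. Causes of these changes were not tested.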

Other observations

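Further called genes of the related lists had large ratios and were named after their values were seen. Dctn5, a subunit of the pointed end of dynactin, read 131, 147 and 185 from B6 and 42, 31 and 58 from Spret in libraries 1, 2 and 3 (log2 ratio -1.83 ± 0.16, limma adjusted p = 5.72e-07). Mzt1, a small protein that helps recruit gamma-tubulin rings, read 313, 278 and 315 from B6 and 120, 61 and 105 from Spret (-1.71 ± 0.14, limma adjusted p = 1.39e-07). Poc5, a protein of the centriole lumen, read 146, 163 and 186 from B6 and 49, 59 and 75 from Spret (-1.44 ± 0.14, limma adjusted p = 1.01e-06). In these 3 genes B6 was above Spret in every library. Toward Spret, Spdl1, which brings dynein to kinetochores, read 22, 23 and 27 from B6 and 54, 52 and 51 from Spret (1.10 ± 0.23, limma adjusted p = 0.00202). Dync1i1, an intermediate chain of dynein, read 65, 93 and 93 from B6 and 119, 130 and 181 from Spret (0.76 ± 0.14, limma adjusted p = 0.000715).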
